A study of Mus musculus with 29 samples.

Results

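The genes described here are 32 that encode enzymes of the citrate cycle, of the malate-aspartate shuttle, and of the reactions that feed carbon into the cycle or draw it off. They were taken from a list of 32 gene symbols, matched to the Ensembl identifiers of the count files, and kept where at least 3 libraries held 10 or more counts. All 32 were matched and all 32 passed, out of 55414 identifiers in the files, of which 14178 passed the same rule. Me1 passed through 5 libraries alone, all from 72 h, while the other 31 had 10 or more counts in all 29 libraries.

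Polyadenylated RNA was sequenced from CD4+ T cells of mouse spleen, in 29 libraries that fall into 10 groups. All cells came from C57BL/6-Foxp3tm1Flv/J mice, in which red fluorescent protein (RFP) reports Foxp3, the regulator whose expression marks regulatory T cells. All were activated with antibodies to CD3 (1.25 ug/ml) and CD28 (2.5 ug/ml) in medium with 0.5 mM glucose and 50 IU/ml interleukin 2, so every group, the controls included, consists of stimulated cells in low glucose. Transforming growth factor beta (TGF-beta, 3 ng/ml) and lactic acid (10 mM) were each added or left out. At 24 h the sorted RFP-negative cells (Tcon) were sequenced without additions, with lactic acid, with TGF-beta, and with TGF-beta and lactic acid, with 3 libraries each. At 72 h the same 4 Tcon groups were sequenced, with 2 libraries for the group without additions and 3 for each other group, together with sorted RFP-positive cells (Treg) from cultures with TGF-beta and from cultures with TGF-beta and lactic acid, with 3 libraries each. In every group the library numbered 1 is male and those numbered 2 and 3 are female, and the ages of the animals were not given in the sources used here. Replicate 1 thus came from other animals than replicates 2 and 3, while the labels do not say whether replicates 2 and 3 were separate animals or cultures, so the spread between these 2, which enters the p-values, may be technical.

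In the citrate cycle, acetyl groups made from pyruvate, fatty acids or amino acids are joined to oxaloacetate to form citrate, and a round of oxidations in the mitochondrial matrix returns oxaloacetate and yields reduced cofactors for respiration. Intermediates withdrawn for biosynthesis have to be replaced, which is called anaplerosis, chiefly from pyruvate and glutamine. The malate-aspartate shuttle, built from cytosolic and mitochondrial pairs of enzymes and from carriers of the inner membrane, moves reducing equivalents from cytosolic NADH into mitochondria. Activated T cells use the cycle both for energy and as a source of building blocks, and regulatory T cells are known for their reliance on oxidative metabolism.

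The libraries held 9754511 to 14315313 gene counts (median 12106958). Levels are given as CPM, that is counts relative to library sizes scaled by the trimmed mean of M values (TMM). The summed level of 8 CD4 T cell markers was 2453 to 3475 CPM in the libraries, against 1.04 to 4.99 CPM for 7 B cell markers, 2.05 to 6.07 CPM for 8 myeloid markers, with Cd14 and C1qa at 0 counts in every library, and at most 0.579 CPM for 6 erythroid markers. Foxp3 stood at 153 to 303 CPM in Treg with TGF-beta and 363 to 573 CPM in Treg with TGF-beta and lactic acid. It was 15.4 to 35.6 and 35.7 to 59.8 CPM in the Tcon sorted from the same 2 cultures, 44.2 to 52.3 and 57.1 to 73.3 CPM in the Tcon with the same additions at 24 h, and at most 1.97 CPM in any Tcon library without TGF-beta. The Tcon gate thus held Foxp3 transcripts in all 4 groups with TGF-beta.

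Upstream sequence is shown for Pcx, which encodes pyruvate carboxylase, and Pck2, which encodes mitochondrial phosphoenolpyruvate carboxykinase, because these genes had the largest range between groups. Pyruvate carboxylase makes oxaloacetate from pyruvate, and the Pck2 product turns oxaloacetate into phosphoenolpyruvate. The sequences are the 250 bases before the starts listed by RefSeq on mouse build GRCm38.p6, which differs from the build of the counts. The Pcx windows are chr19:4510222-4510471 and chr19:4594069-4594318 and the Pck2 window is chr14:55540016-55540265, all on the + strand. Capitals mark matches to CACGTG or to CCAATC on the printed strand or its reverse complement.
Pcx, upstream start: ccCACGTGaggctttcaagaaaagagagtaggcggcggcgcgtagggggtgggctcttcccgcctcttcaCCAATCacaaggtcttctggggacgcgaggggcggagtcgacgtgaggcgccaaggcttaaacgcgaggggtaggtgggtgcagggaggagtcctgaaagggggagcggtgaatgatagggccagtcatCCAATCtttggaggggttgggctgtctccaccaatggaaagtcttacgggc
Pcx, downstream start: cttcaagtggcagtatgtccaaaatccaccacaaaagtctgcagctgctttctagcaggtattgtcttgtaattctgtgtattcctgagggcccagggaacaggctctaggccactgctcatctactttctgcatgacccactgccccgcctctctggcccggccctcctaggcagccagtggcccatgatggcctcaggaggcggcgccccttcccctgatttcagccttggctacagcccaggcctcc
Pck2: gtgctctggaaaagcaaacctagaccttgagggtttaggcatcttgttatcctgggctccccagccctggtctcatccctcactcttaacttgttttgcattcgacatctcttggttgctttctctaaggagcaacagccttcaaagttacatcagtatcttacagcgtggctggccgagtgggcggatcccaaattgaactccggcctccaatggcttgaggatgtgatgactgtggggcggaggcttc

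The first window of Pcx holds CACGTG 248 bases and CCAATC 180 bases before the start, with a second CCAATC nearer to it, and the other 2 windows hold neither. The RefSeq table matched 29 of the 32 genes, in 37 windows, and had no entry for Idh3a, Me2 and Sdhc. Both strands were searched and no matches of different motifs overlapped in the windows printed. CACGTG was found in 6 of these windows, those of Ogdh, Pcx, Slc25a1 and Slc25a13, and in 6.02% of all 32851 windows of that length. CCAATC was found in 8 windows, those of Cs, Fh1, Got1, Idh1, Idh3b, Mdh1, Ogdh and Pcx, and in 14.6% of all. AAGGTCA occurred in 1 window, that of Got1, and in 4.08% of all, and TGATGNAAT in none of the 37 and in 0.816% of all. These matches describe letters and say nothing of binding.

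Per kilobase of exon, the most abundant of the 32 transcripts were those of Mdh2, the mitochondrial malate dehydrogenase, at a mean of 111 CPM per kb over the 29 libraries, Sdhd, a membrane anchor of succinate dehydrogenase, at 109.9, Acly, the cytosolic enzyme that splits exported citrate into acetyl-CoA and oxaloacetate, at 94.6, and Sdha, the flavoprotein of succinate dehydrogenase, at 81.4 CPM per kb. The lowest were Slc25a13 at 6.26, Slc25a10 at 5.46, Idh1 at 2.73 and Me1 at 0.132 CPM per kb. Exon lengths came from an annotation of another build, so levels compared between genes are approximate.

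The ratio of the highest to the lowest group mean was below 2 for 22 of the 31 genes with counts in every library. It was 1.5 or more for 17 genes, with a median of 1.60, and was not set against that of all genes. It was smallest for Slc25a1, the mitochondrial citrate carrier, at 1.15. It was largest for Pcx at 64.9 and Pck2 at 16.5, followed by Idh1, the cytosolic NADP-dependent isocitrate dehydrogenase, at 5.30, Me2, the mitochondrial malic enzyme, at 3.36, and Slc25a13, an aspartate-glutamate carrier, at 3.14.

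**Figure D1:**
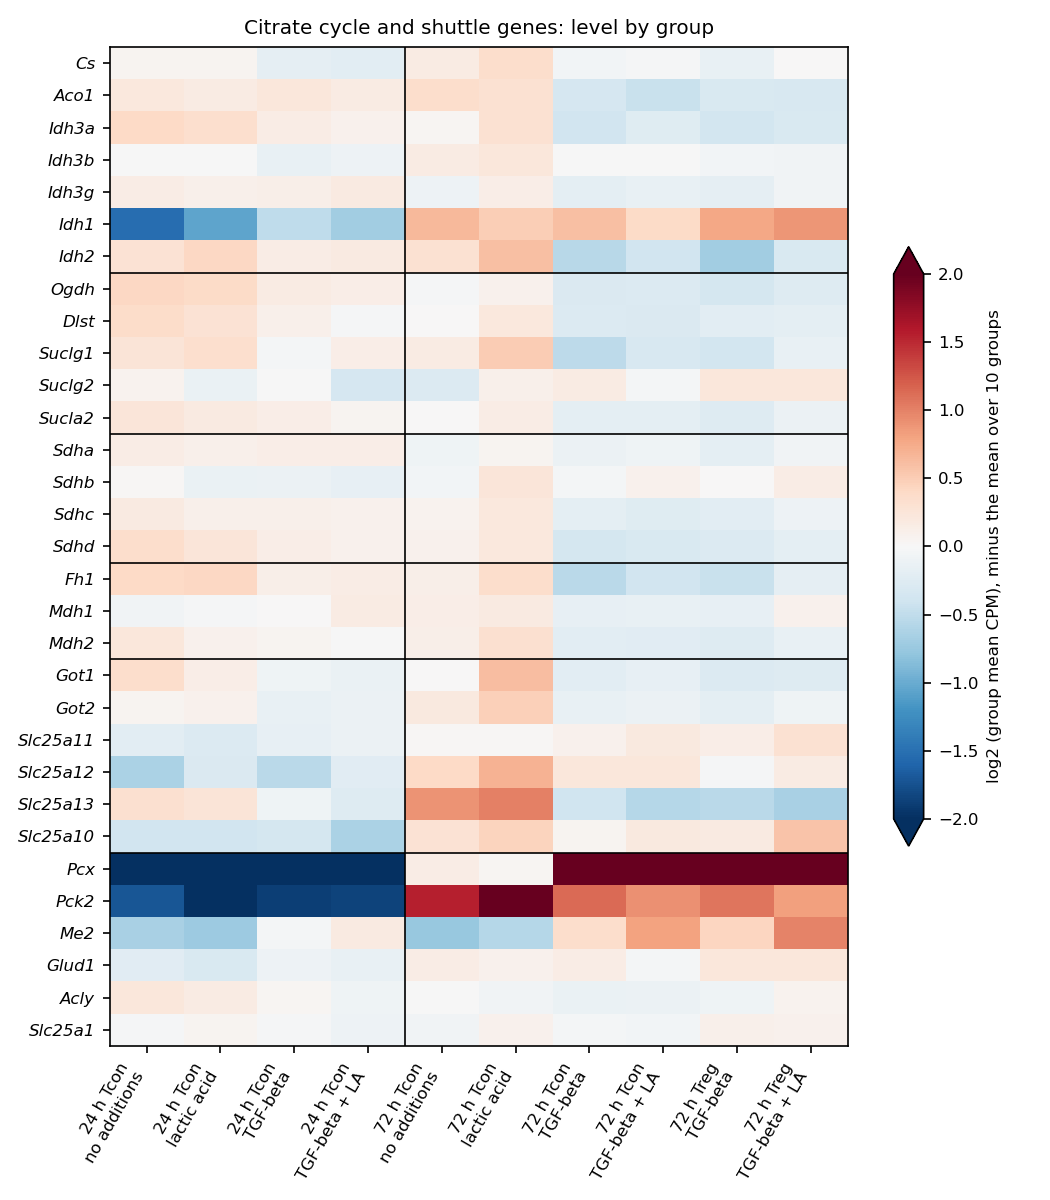
Colours show the log2 group mean CPM of 31 genes in the 10 groups, as the difference from that gene's mean over the groups, with Me1 left out because it had no counts in 1 group. Colours stop at differences of 2 in either direction. Pcx and Pck2 show the widest range, and most rows of the core cycle stay pale.

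The effect of TGF-beta on Tcon was asked at each time, with and without lactic acid. At 72 h TGF-beta raised Pcx and Me2 and lowered Slc25a13, Idh2, Aco1, Suclg1 and Fh1, each with and without lactic acid. Further genes, among them genes of the cycle and the shuttle, passed as falls only in lactic acid. The difference between the TGF-beta effects with and without lactic acid at 72 h was tested as an interaction. That interaction passed for 0 of the 32 genes, against 0.104% of all genes. The group without additions had 2 libraries, against 3 in the other groups. The calls of Suclg1 and Fh1 without lactic acid were lost without replicate 1 of the TGF-beta group. Their size, and that of Idh2, also moved with single libraries. Over fits that left out 1 library the log2 fold change ran from -1.11 to -0.53 for Idh2. For Suclg1 it ran from -0.89 to -0.41 and for Fh1 from -0.88 to -0.41, all without lactic acid. Without lactic acid, 2 of the 32 genes rose and 5 fell by edgeR's quasi-likelihood test at an adjusted p below 0.05, with 25 not passing. Of all 14375 genes tested, 12.8% rose and 11.7% fell. With lactic acid present in both groups, 2 rose, 20 fell and 10 did not pass, against 22.5% of all genes that rose and 22.5% that fell. The median log2 fold change of the 32 genes was -0.22 without and -0.37 with lactic acid, and that of all genes tested was -0.031 and -0.023. Without replicate 2 of the group without additions the first was -0.10.

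Same-numbered libraries of a time point deviated together. A fit that added the replicate number as a block called 20 of the 32 genes without lactic acid, while it called 45.4% of all genes. With lactic acid the block called 23 of the 32, against 60% of all genes. Of these calls 17 without and 21 with lactic acid were falls. Values come from the fit without the block unless the block is named. In bulk samples such as these, fewer cells of a type and less RNA per cell cannot be told apart. The summed level of 7 markers of CD8 T and natural killer cells also moved with TGF-beta. At 72 h it was 26.02 to 31.9 CPM in the libraries without additions against 40.7 to 89.4 CPM with TGF-beta, and 18.9 to 30.2 CPM with lactic acid against 91.6 to 137 CPM with both. All 7 were detected in these 4 groups, though Ncr1 and Klrb1c lay near 0, with group means of at most 0.0816 and 0.185 CPM. Eomes, which activated CD4 T cells can also express, had mean levels of 13.8 and 37.8 CPM in the first pair of groups, while of the 2 genes that define CD8 T cells, Cd8a had 0.359 and 9.52 CPM and Cd8b1 8.28 and 5.76 CPM, in opposite directions. Their part in the results below was not tested.

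**Figure D2:**
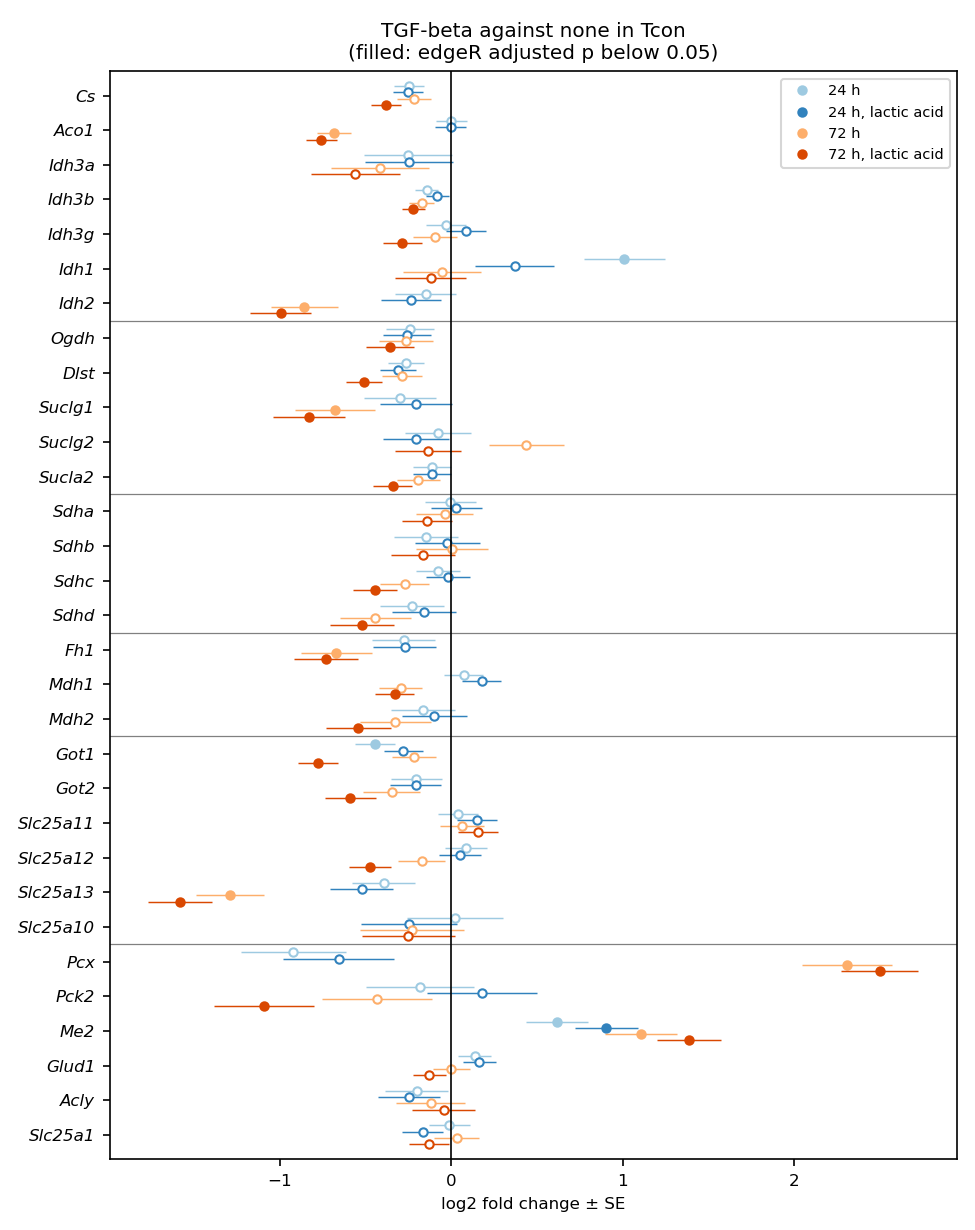
Log2 fold changes with TGF-beta in Tcon are plotted for 31 genes with their SE, at 24 h (blue) and 72 h (orange), without lactic acid (pale) and with it (dark), and filled points passed edgeR's test at an adjusted p below 0.05. Pcx and Me2 lie far to the right at 72 h and most other filled points lie to the left of 0. Horizontal lines separate the roles, with citrate formation and the isocitrate steps at the top. Entry and exit of carbon, which the text takes first, lies at the bottom. Me1 is left out because of its few counts.

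Entry and exit of carbon held the largest rise. Pcx stood at 21.6 and 24.03 CPM in the 72 h libraries without additions and at 77.3, 133 and 128 CPM in those with TGF-beta. With lactic acid it was 20.6, 21.6 and 21.5 CPM without TGF-beta and 149, 96.1 and 115 CPM with it. Every library with TGF-beta was several times above every library without it, and among the TGF-beta libraries replicate 1 was the lowest without lactic acid and the highest with it. These were log2 fold changes of 2.31 ± 0.26 (SE, edgeR adjusted p = 6.03e-07) and 2.50 ± 0.23 (edgeR adjusted p = 7.67e-09).

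Me2 encodes the mitochondrial malic enzyme, which makes pyruvate from malate. It was 106 and 152 CPM without additions and 187, 327 and 320.3 CPM with TGF-beta at 72 h, and in lactic acid it was 129.8, 160.1 and 149 CPM against 382, 356 and 410.2 CPM. The groups did not overlap, and replicate 1 with TGF-beta alone lay well below the other 2. On the log2 scale Me2 rose by 1.11 ± 0.21 and 1.39 ± 0.19 (edgeR adjusted p = 0.000393 and 2.30e-06). Me1, its cytosolic NADP-dependent counterpart, was near the limit of detection, with 43, 3, 14 counts in the 3 lactic acid libraries at 72 h and 2, 3, 2 with TGF-beta added. Me1 was kept through 5 libraries, and the Tcon libraries with both additions were not among them. That rule favoured a fall here, so no p-value is given for it. The call was also lost without replicate 1 of the lactic acid group or of the TGF-beta and lactic acid group. Replicate 1 alone held most of the Me1 counts without TGF-beta. The 20 falls counted above include Me1, whose direction the choice of genes favoured.

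Pck2 fell with TGF-beta in lactic acid, from 355, 246 and 324 CPM to 218, 103 and 112 CPM, without overlap, by 1.09 ± 0.29 on the log2 scale (edgeR adjusted p = 0.00424). Without lactic acid it was 268 and 185 CPM against 204, 151 and 149 CPM, with overlapping groups, and the log2 fold change of -0.43 ± 0.32 did not pass (edgeR adjusted p = 0.363). The difference between these effects did not pass without the block (log2 difference -0.66 ± 0.44, edgeR adjusted p = 0.78) and passed with it (edgeR adjusted p = 0.0411). Glud1, which interconverts glutamate and 2-oxoglutarate, Acly and Slc25a1 did not pass at 72 h, with log2 fold changes between -0.13 and 0.031.

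**Figure D3:**
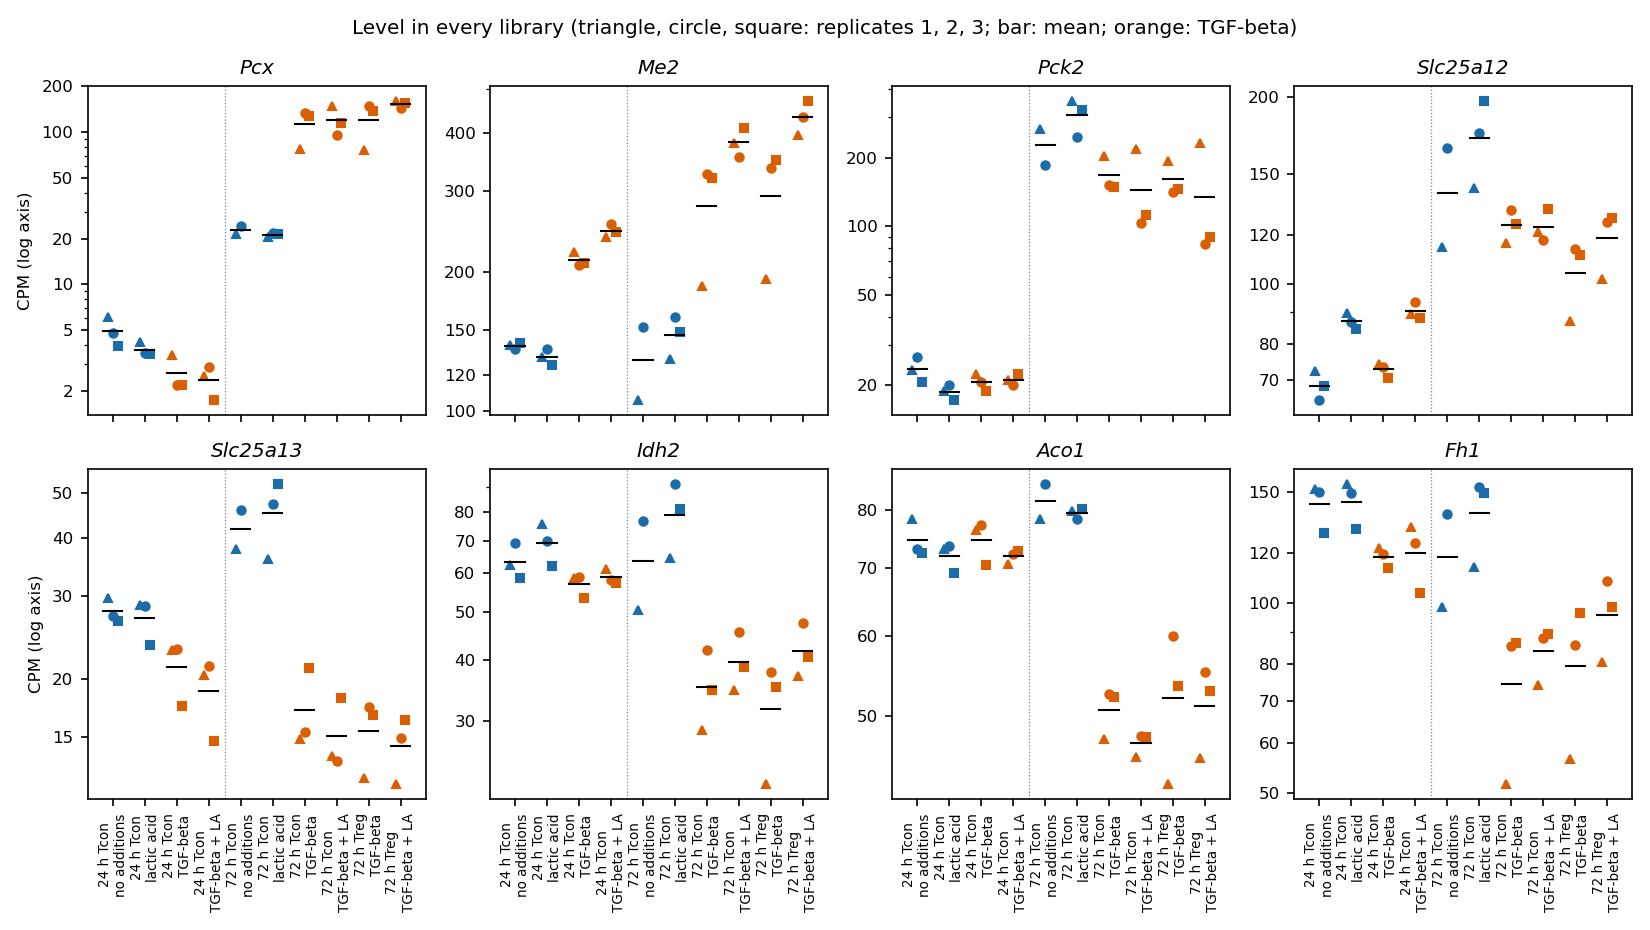
Levels of 8 genes in every library are plotted as CPM on log axes, grouped by time, sorted population and additions, with the replicate number given by the symbol and the group mean by a bar. Pcx rises between the times and again with TGF-beta, and at 72 h Slc25a13 falls further with TGF-beta than Slc25a12 does. The replicate 1 triangles lie lowest in Idh2 and Fh1 and highest in Pck2 at 72 h.

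Among the genes of citrate formation and the isocitrate steps, 2 of 7 fell without lactic acid and 5 of 7 with it (all genes 11.7% and 22.5%). Idh2, the mitochondrial NADP-dependent isocitrate dehydrogenase, was 50.5 and 76.8 CPM without additions and 28.8, 41.9 and 34.8 CPM with TGF-beta at 72 h. In lactic acid it went from 64.5, 91.1 and 81.1 to 34.8, 45.6 and 38.7 CPM. Groups did not overlap in either setting, and replicate 1 was lowest in each of the 4. Idh2 had log2 fold changes of -0.86 ± 0.19 and -0.99 ± 0.18 (edgeR adjusted p = 0.00214 and 8.74e-05). Without replicate 2 of the group without additions the first did not pass (edgeR adjusted p = 0.112).

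Aco1 encodes the cytosolic aconitase, which also acts as an RNA-binding regulator of iron metabolism when it lacks its iron-sulfur cluster. It was 78.4 and 84.7 CPM without additions and 47.5, 52.6 and 52.2 CPM with TGF-beta, and 79.7, 78.2 and 80.2 against 45.6, 47.8 and 47.6 CPM in lactic acid. The spread within groups was small beside the gap between them, and the log2 fold changes were -0.68 ± 0.10 and -0.76 ± 0.092 (edgeR adjusted p = 2.01e-05 and 6.09e-07). The fall passed in every fit that left out 1 library. Cs, citrate synthase, fell by a smaller amount, from 502, 520.4 and 544 to 378, 393 and 433 CPM in lactic acid (log2 fold change -0.38 ± 0.089, edgeR adjusted p = 0.00139), and did not pass without it (-0.22 ± 0.10, edgeR adjusted p = 0.12).

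The NAD-dependent isocitrate dehydrogenase is built from the products of Idh3a, Idh3b and Idh3g. In lactic acid Idh3b changed from 173, 203 and 186 to 172, 155 and 155 CPM and Idh3g from 118, 132 and 139.9 to 104, 103 and 113 CPM, falls of 0.22 and 0.28 on the log2 scale that passed (edgeR adjusted p = 0.00961 and 0.0487). The call of Idh3b was lost without replicate 2 of the lactic acid group (edgeR adjusted p = 0.078), and that of Idh3g without replicates 1, 2 or 3 of the group with both additions or replicates 2 or 3 of the lactic acid group (edgeR adjusted p up to 0.21). Idh3a, the catalytic subunit, was 121, 193 and 182 CPM against 81.99, 117 and 138 CPM, with replicate 1 far below the other 2 in each group, and its log2 fold change of -0.56 ± 0.26 did not pass (edgeR adjusted p = 0.0816) except with the block (edgeR adjusted p = 2.05e-07). Idh1 did not pass at 72 h (-0.054 ± 0.23 and -0.12 ± 0.21).

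Of the 5 genes that carry 2-oxoglutarate to succinate, 1 fell without lactic acid and 4 with it (all genes 11.7% and 22.5%). Suclg1, the subunit shared by both succinyl-CoA synthetases, was 95.4 and 136 CPM without additions and 49.2, 79.9 and 87.7 CPM with TGF-beta, and 122, 159 and 161 against 68.02, 86.7 and 93.9 CPM in lactic acid. Groups did not overlap, though replicate 1 of each was the lowest. Suclg1 had log2 fold changes of -0.68 ± 0.23 and -0.83 ± 0.21 (edgeR adjusted p = 0.0356 and 0.00275), and the first did not pass without replicate 1 of the TGF-beta group or replicate 2 of the group without additions (edgeR adjusted p up to 0.356).

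Suclg1 pairs with Sucla2 in the ATP-forming synthetase and with Suclg2 in the GTP-forming one. In lactic acid Sucla2 fell from 70.7, 82.3 and 79.2 to 56.04, 58.95 and 68.4 CPM (log2 fold change -0.34 ± 0.11, edgeR adjusted p = 0.0178), whereas Suclg2 was 33.5, 42.4 and 37.3 against 32.4, 31.4 and 39.2 CPM and did not pass (-0.14 ± 0.19, edgeR adjusted p = 0.592). Without lactic acid Suclg2 was 21.8 and 36.7 CPM without and 29.4, 46.3 and 43.4 CPM with TGF-beta, a log2 fold change of 0.44 ± 0.22 that passed as a rise with the block alone (edgeR adjusted p = 0.153 without and 0.0223 with it). Per length, the ratio of Sucla2 to Suclg2 was 2.39 ± 0.119 (SD, n = 3) in lactic acid and 2.07 ± 0.0942 (SD, n = 3) with TGF-beta added. Ogdh and Dlst, the first 2 components of the 2-oxoglutarate dehydrogenase complex, fell in lactic acid by 0.36 and 0.51 on the log2 scale (edgeR adjusted p = 0.0424 and 0.000409). The calls of Sucla2 and Ogdh were lost without replicates 1 or 2 of the group with both additions or replicates 2 or 3 of the lactic acid group (edgeR adjusted p up to 0.0831 and 0.205).

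Succinate dehydrogenase is also complex II of the respiratory chain, and its membrane anchors were the subunits that passed. Sdhc and Sdhd fell with TGF-beta in lactic acid, by 0.45 and 0.52 on the log2 scale (edgeR adjusted p = 0.00703 and 0.028). The catalytic Sdha (-0.14 ± 0.15) and the iron-sulfur subunit Sdhb (-0.17 ± 0.19) did not pass in that comparison (edgeR adjusted p = 0.456 and 0.49), and whether subunits differ from each other was not tested. Sdhd was 121, 183 and 160.1 CPM against 92.6, 109 and 122 CPM, where 1 library of each group overlapped, and its call was lost without replicates 1 or 2 of the group with both additions or replicates 2 or 3 of the lactic acid group (edgeR adjusted p up to 0.148). Without lactic acid none of the 4 subunits passed, while with the block Sdhd and Sdhc did, as falls of 0.52 and 0.35 on the log2 scale (edgeR adjusted p = 1.21e-05 and 0.000223), and Sdha and Sdhb did not (edgeR adjusted p = 0.418 and 0.408).

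All 3 genes of the fumarate and malate steps fell with TGF-beta in lactic acid (all genes 22.5%). Fh1, fumarase, fell without lactic acid as well (all genes 11.7%). Fh1 was 98.6 and 139 CPM without additions and 51.8, 85.4 and 86.6 CPM with TGF-beta. In lactic acid it was 114, 153 and 149 CPM against 74.1, 88.2 and 89.3 CPM with TGF-beta added. The groups did not overlap, and replicate 1 was again the lowest library of each. Fh1 had log2 fold changes of -0.67 ± 0.21 and -0.73 ± 0.19 (edgeR adjusted p = 0.0202 and 0.00304), and the first did not pass without replicate 1 of the TGF-beta group or replicate 2 of the group without additions (edgeR adjusted p up to 0.284).

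The malate dehydrogenases of the cytosol and of mitochondria both fell in lactic acid. Mdh1 was 227, 212 and 210.4 CPM against 160.1, 175 and 182 CPM and Mdh2 was 413, 531 and 533 against 293, 334 and 387 CPM, without overlap in either. Mdh1 changed by -0.33 ± 0.11 and Mdh2 by -0.54 ± 0.19 on the log2 scale (edgeR adjusted p = 0.0225 and 0.0226). The call of Mdh1 was lost without replicates 1 or 3 of the lactic acid group or replicate 1 of the group with both additions (edgeR adjusted p up to 0.0955), and that of Mdh2 without replicates 1 or 2 of the group with both additions or replicates 2 or 3 of the lactic acid group (edgeR adjusted p up to 0.098). Per length, the ratio of Mdh2 to Mdh1 was 1.65 ± 0.291 in lactic acid and 1.41 ± 0.112 with TGF-beta added (SD, n = 3 each), with libraries at 1.31 to 1.83 and 1.32 to 1.54 that overlap.

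In the malate-aspartate shuttle the 2 aspartate-glutamate carriers, which export aspartate from mitochondria, had falls of different size with TGF-beta, a difference that was not tested. Slc25a13, also known as citrin, was 37.8 and 45.8 CPM without additions and 14.9, 15.4 and 21.1 CPM with TGF-beta at 72 h, and 35.99, 47.3 and 52.1 against 13.7, 13.4 and 18.2 CPM in lactic acid. All TGF-beta libraries lay far below all others of that time. Slc25a13 had log2 fold changes of -1.29 ± 0.20 and -1.58 ± 0.19 (edgeR adjusted p = 3.99e-05 and 3.96e-07), the largest falls among the 31 genes other than Me1, and they passed in every fit that left out 1 library. Slc25a12, also known as aralar, was 115 and 165 CPM without additions against 116, 131 and 125 CPM with TGF-beta, and 143, 175 and 197 against 121, 118 and 132 CPM in lactic acid. Its fall passed in lactic acid (-0.47 ± 0.12, edgeR adjusted p = 0.00332) and not without it (-0.17 ± 0.14, edgeR adjusted p = 0.398), where the block made it pass (edgeR adjusted p = 0.0484).

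Per length, the ratio of Slc25a12 to Slc25a13 was 1.72 ± 0.212 (SD, n = 2) at 72 h without additions and 1.97 ± 0.0708 (SD, n = 3) with lactic acid. It was 3.84 ± 0.697 with TGF-beta, 4.30 ± 0.479 with TGF-beta and lactic acid, and 3.49 ± 0.150 and 4.28 ± 0.202 in the Treg of the same 2 cultures (SD, n = 3 each). The lowest of the 12 TGF-beta libraries at 72 h, at 3.06, was above the highest of the 5 others, at 2.05. At 24 h the ratio was 1.27 ± 0.0515 without additions, 1.68 ± 0.155 with lactic acid, 1.80 ± 0.252 with TGF-beta and 2.54 ± 0.477 with both (SD, n = 3 each).

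Got1, the cytosolic aspartate aminotransferase of the shuttle, was 199.6, 222 and 257 CPM with lactic acid and 149, 113 and 134 CPM with TGF-beta added, and Got2, its mitochondrial counterpart, was 148, 185 and 179 against 103, 113 and 125 CPM. The fall was 0.78 ± 0.12 for Got1 and 0.59 ± 0.15 for Got2 on the log2 scale (edgeR adjusted p = 1.06e-05 and 0.00287). Without lactic acid, where Got1 was 127 and 171 CPM without and 122, 131 and 132 CPM with TGF-beta, neither passed (-0.22 ± 0.13 and -0.35 ± 0.17). The malate carrier Slc25a11 (0.16 ± 0.12) and the dicarboxylate carrier Slc25a10 (-0.25 ± 0.27) did not pass in lactic acid either.

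At 24 h fewer genes passed. Without lactic acid 2 of the 32 rose and 1 fell with TGF-beta, against 7.96% and 3.35% of all genes. With lactic acid 1 rose and 0 fell, against 8.06% and 4.38% of all genes. Without regard to the test, the 3 libraries with TGF-beta lay below all 3 without it for 13 of the 32 genes without lactic acid, against 21% of all genes, and for 10 with it, against 18.6%. The fit with the replicate block called 12 without lactic acid, against 31.7% of all genes, and 10 with it, against 32.4%. Scaling moved the split of all genes, where 70.4% of all called genes without lactic acid were higher with TMM and 60.5% with relative log expression (RLE) scaling, and 64.8% and 54.5% with lactic acid. The 7 CD8 T and natural killer cell markers summed to 105 to 128 CPM without additions and 15.7 to 20.2 CPM with TGF-beta, mostly Eomes at mean levels of 101 and 11.4 CPM, which is the opposite direction from 72 h.

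Me2 rose at 24 h, from 139.6, 136 and 140.3 CPM to 221, 208 and 209 CPM with TGF-beta, and from 131, 137 and 126 to 239, 254 and 245 CPM in lactic acid. Libraries within a group agreed closely and the groups were well apart. On the log2 scale these rises were 0.62 ± 0.18 and 0.90 ± 0.18 (edgeR adjusted p = 0.0299 and 0.00143), and the first did not pass in any of the 6 fits that left out 1 of its libraries (edgeR adjusted p up to 0.0939). Idh1 rose from 2.67, 2.09 and 2.22 to 4.65, 5.35 and 4.11 CPM, or 36, 25, 25 and 57, 64, 45 counts, by 1.01 ± 0.24 on the log2 scale (edgeR adjusted p = 0.00552). In lactic acid the log2 fold change of Idh1 was 0.37 ± 0.23 and did not pass (edgeR adjusted p = 0.331). Got1 fell from 200.4, 193 and 176 to 146, 145 and 128 CPM, by 0.44 ± 0.12 (edgeR adjusted p = 0.0132), a call lost without replicate 1 of the group without additions or replicate 3 of the TGF-beta group (edgeR adjusted p up to 0.0878). Me2 and Got1 therefore rest on small margins without lactic acid.

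Pcx at 24 h showed no rise with TGF-beta. It was 6.08, 4.77 and 3.91 CPM without additions and 3.42, 2.17 and 2.19 CPM with TGF-beta, and 4.18, 3.53 and 3.46 against 2.50, 2.87 and 1.73 CPM in lactic acid. The TGF-beta libraries were the lower ones in both settings. The log2 fold changes were -0.92 ± 0.31 and -0.66 ± 0.32 and did not pass (edgeR adjusted p = 0.0534 and 0.205). Slc25a13 was 29.8, 27.3 and 26.6 CPM without additions against 23.1, 23.2 and 17.4 CPM with TGF-beta, and 28.7, 28.6 and 23.6 against 20.4, 21.3 and 14.7 CPM in lactic acid, and passed as a fall with the block alone (edgeR adjusted p = 0.185 and 0.0644 without, 0.00219 and 0.000146 with it).

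Whether the TGF-beta effect differed between 24 and 72 h was tested directly. Without lactic acid 2 of 32 genes passed, against 5.73% of all genes. They were Pcx, whose effect was greater at 72 h by 3.23 ± 0.40 on the log2 scale (edgeR adjusted p = 2.04e-05), and Aco1, whose effect was lower by 0.69 ± 0.14 (edgeR adjusted p = 0.00312). With lactic acid 7 passed, against 14.4% of all genes. Pcx again differed upwards (3.15 ± 0.39, edgeR adjusted p = 8.05e-06), and Slc25a13 (-1.06 ± 0.26), Idh2 (-0.76 ± 0.25), Aco1 (-0.75 ± 0.13), Slc25a12 (-0.53 ± 0.17), Mdh1 (-0.51 ± 0.16) and Got1 (-0.50 ± 0.16) differed downwards. The calls of Slc25a12, Idh2, Mdh1 and Got1 were lost in 10, 9, 8 and 8 of 12 fits that left out 1 library, with edgeR adjusted p up to 0.176, 0.116, 0.126 and 0.179. Leaving out the following libraries kept the calls: for Slc25a12 replicate 1 of the 72 h lactic acid group or replicate 3 of the 72 h group with both additions, for Idh2 replicate 1 of the 24 h lactic acid group, replicate 1 of the 72 h lactic acid group or replicate 2 of the 72 h group with both additions, for Mdh1 replicate 2 of the 24 h lactic acid group, replicate 3 of the 24 h group with both additions, replicate 2 of the 72 h lactic acid group or replicate 3 of the 72 h group with both additions, and for Got1 replicate 1 of the 24 h lactic acid group, replicate 3 of the 24 h group with both additions, replicate 1 of the 72 h lactic acid group or replicate 1 of the 72 h group with both additions. With the block 10 and 18 genes passed, against 19.4% and 33.6% of all genes. Among those 10 and 18 genes, Pcx was the 1 that differed upwards without lactic acid, and Pcx and Me2 with it.

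Between 24 and 72 h of culture, Pck2, Pcx, Idh1 and Slc25a12 rose in all 4 Tcon conditions. Glud1 rose in 3 of them, by 0.37 without additions, 0.39 with lactic acid and 0.24 with TGF-beta on the log2 scale (edgeR adjusted p = 0.0066, 0.00194 and 0.0405), and Me2 rose with both additions, by 0.64 (edgeR adjusted p = 0.00601). The Glud1 call with TGF-beta was lost without replicates 1, 2 or 3 of the 24 h TGF-beta group or replicates 1 or 2 of the 72 h TGF-beta group (edgeR adjusted p up to 0.133), and that without additions without replicate 1 of the 72 h group without additions (edgeR adjusted p = 0.33). Without additions 7 of 32 genes rose and 3 fell (all genes, 27.1% and 18.4%). In lactic acid 13 rose and 0 fell (26.5% and 20.1%), in TGF-beta 5 rose and 9 fell (28% and 24.8%), and in TGF-beta with lactic acid 7 rose and 8 fell (24.4% and 23%). The counts without additions and in lactic acid include Me1, whose direction the choice of genes fixed. With the replicate block 19, 24 and 25 of the 32 genes passed over time without additions, in TGF-beta and in both, against 58%, 65.9% and 61.7% of all genes. In TGF-beta with lactic acid RLE scaling gave 8 and 5. The labels do not say whether both times came from 1 experiment, so time and any difference between experiments cannot be told apart. The 7 CD8 T and natural killer cell markers moved with time too. Without additions their sum was 105 to 128 CPM at 24 h and 26.02 to 31.9 CPM at 72 h, with TGF-beta it was 15.7 to 20.2 and 40.7 to 89.4 CPM, and their part in the time results was not tested.

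**Figure D4:**
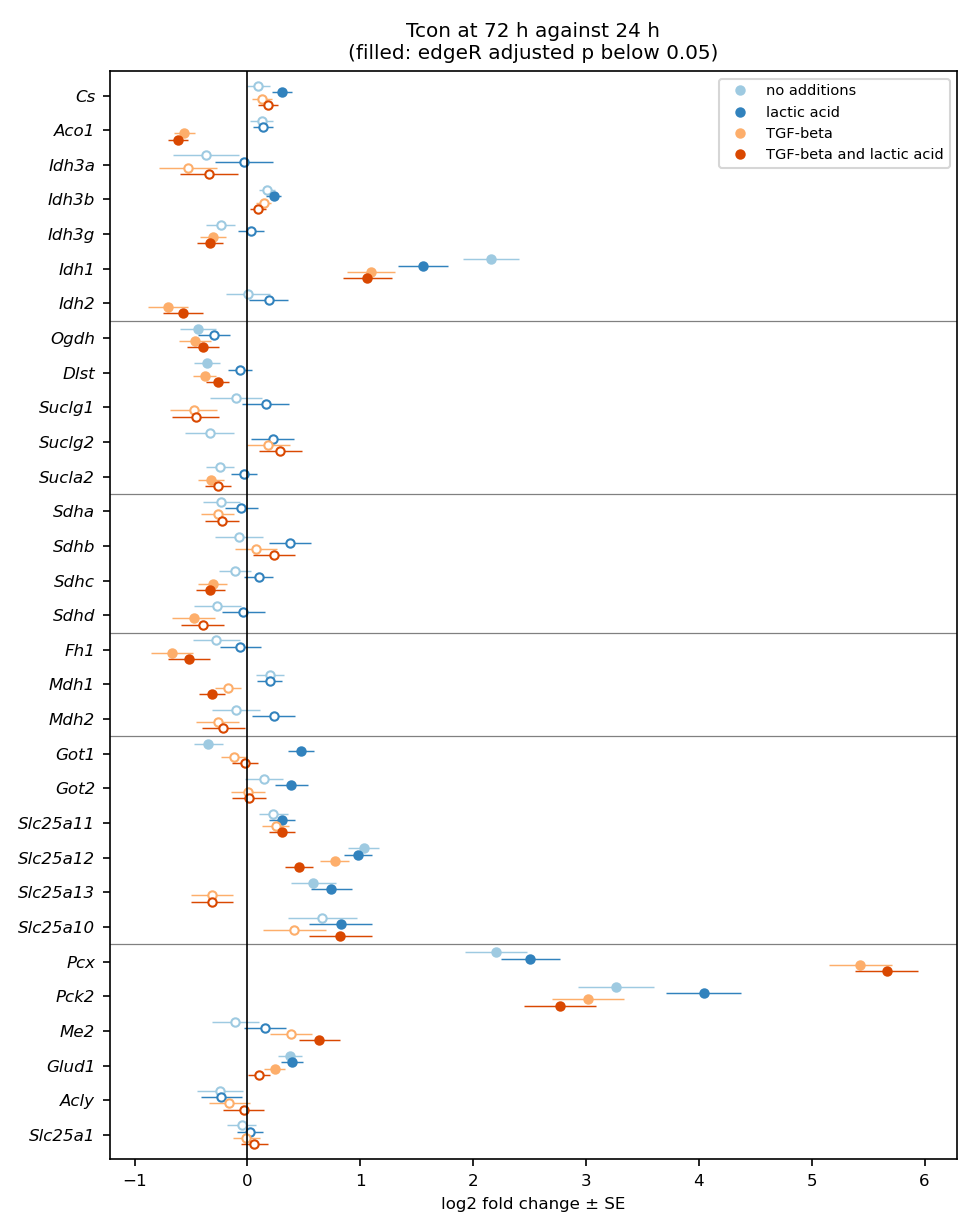
Log2 fold changes of 72 h against 24 h in Tcon are plotted for 31 genes with their SE, in blue without TGF-beta and in orange with it, pale without lactic acid and dark with it, and filled points passed edgeR's test at an adjusted p below 0.05. Pcx and Pck2 lie farthest to the right in all 4 conditions, and filled points to the left are mostly orange. Me1 is left out because it had no counts in 1 group.

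At 24 h Pck2 was 23.3, 26.6 and 20.6 CPM without additions, 18.8, 20.03 and 17.2 CPM with lactic acid, 22.5, 20.7 and 18.9 CPM with TGF-beta and 21.02, 20.1 and 22.5 CPM with both. Every 72 h library, at 83.4 CPM or more, was above every 24 h library. The log2 fold changes over time were 3.27 ± 0.34 without additions, 4.04 ± 0.33 with lactic acid, 3.02 ± 0.32 with TGF-beta and 2.77 ± 0.32 with both (edgeR adjusted p = 5.90e-08, 1.36e-09, 5.81e-08 and 1.80e-07). Pcx rose by 2.20 ± 0.27 without additions and 2.51 ± 0.26 with lactic acid, and by 5.43 ± 0.28 and 5.66 ± 0.28 in the TGF-beta conditions (edgeR adjusted p = 7.03e-07, 5.52e-08, 6.59e-13 and 3.47e-13). The interaction given above is the test of that difference for Pcx.

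Idh1 was 13.4 and 7.60 CPM at 72 h without additions, 12.3, 7.74 and 8.17 CPM with lactic acid, 11.2, 9.85 and 9.19 CPM with TGF-beta and 7.42, 10.2 and 8.40 CPM with both. It rose by 2.16 ± 0.25, 1.55 ± 0.22, 1.09 ± 0.21 and 1.06 ± 0.22 on the log2 scale in these conditions (edgeR adjusted p = 2.21e-07, 4.62e-06, 0.000182 and 0.000316). Idh2, by contrast, was 62.4, 69.1 and 58.7 CPM at 24 h without additions and 58.9, 59.1 and 53.5 CPM with TGF-beta, and fell over time in TGF-beta (-0.70 ± 0.18, edgeR adjusted p = 0.00214) and in TGF-beta with lactic acid (-0.57 ± 0.18, edgeR adjusted p = 0.0106), the last not without replicate 1 of the 72 h group with both additions (edgeR adjusted p = 0.0571). Per length, mitochondrial Idh2 exceeded cytosolic Idh1 by 29.6 ± 5.29 times at 24 h without additions, 13.1 ± 1.14 times at 24 h with TGF-beta and 3.79 ± 0.924 times at 72 h with TGF-beta (SD, n = 3 each). At 72 h without additions the 2 libraries had ratios of 4.05 to 10.8.

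Me1 had 0, 0, 0 counts at 24 h and 42 and 8 counts at 72 h without additions, and 1, 0, 1 against 43, 3, 14 in lactic acid, with most of the 72 h counts in replicate 1. In each of the other 24 h groups Me1 had at most 2 counts in all. Since Me1 was kept through 72 h libraries alone, that rule fixed the direction of this difference and no test of it is given. It stayed a minor transcript beside Me2, which at 72 h without additions was 15.6 to 131 times as high per length.

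Got1, Got2 and the carriers Slc25a10, Slc25a11, Slc25a12 and Slc25a13 were grouped as the shuttle and its carriers, with the malate dehydrogenases counted among the fumarate and malate steps, of which 0 of 3 rose with time in lactic acid. Of the 6, 6 rose with time in lactic acid (all genes 26.5%), and 2 rose and 1 fell without additions (all genes 27.1% and 18.4%). In TGF-beta 1 rose and in TGF-beta with lactic acid 3 (all genes 28% and 24.4%). Slc25a12 was 72.3, 64.8 and 68.3 CPM at 24 h without additions, 74.3, 73.4 and 70.4 CPM with TGF-beta and 89.2, 93.5 and 87.9 CPM with both additions, below every 72 h Tcon library of the same conditions. It rose by 1.03 ± 0.14 without additions, 0.98 ± 0.12 with lactic acid, 0.77 ± 0.12 with TGF-beta and 0.45 ± 0.12 with both (edgeR adjusted p = 1.99e-06, 8.78e-07, 2.03e-05 and 0.00425). Slc25a13 rose without additions (0.58 ± 0.20) and in lactic acid (0.74 ± 0.18; edgeR adjusted p = 0.0198 and 0.0017). The first of these calls was lost without replicate 3 of the 24 h group or replicate 2 of the 72 h group (edgeR adjusted p up to 0.195). Slc25a10 rose in TGF-beta with lactic acid, from 14.04, 10.1 and 11.5 to 15.1, 21.2 and 26.7 CPM (0.82 ± 0.28, edgeR adjusted p = 0.0185), a call lost without replicates 2 or 3 of the 24 h group with both additions or replicate 3 of the 72 h group with both additions (edgeR adjusted p up to 0.11). In lactic acid Slc25a10 rose by 0.82 ± 0.28, Got1 by 0.47 ± 0.12, Got2 by 0.39 ± 0.15 and Slc25a11 by 0.30 ± 0.12 (edgeR adjusted p = 0.017, 0.0018, 0.0356 and 0.0355). Of these, Slc25a10 lost the call without replicate 3 of the 24 h lactic acid group or replicate 2 of the 72 h lactic acid group, Got2 without replicates 2 or 3 of the 24 h lactic acid group or replicates 2 or 3 of the 72 h lactic acid group and Slc25a11 without replicates 1, 2 or 3 of the 24 h lactic acid group or replicates 2 or 3 of the 72 h lactic acid group (edgeR adjusted p up to 0.11, 0.13 and 0.11). The rise of Slc25a11 with both additions was lost without replicates 1 or 3 of the 24 h group with both additions or replicate 3 of the 72 h group with both additions (edgeR adjusted p up to 0.122).

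Without additions the genes that fell were Ogdh, Dlst and Got1. With TGF-beta they were Idh2, Fh1, Aco1, Sdhd, Ogdh, Dlst, Sucla2, Sdhc and Idh3g, and with both additions Aco1, Idh2, Fh1, Ogdh, Idh3g, Sdhc, Mdh1 and Dlst. Ogdh was 360.1, 325 and 319.5 CPM at 24 h and 209.6 and 285 CPM at 72 h without additions, 269, 286 and 272 against 176, 216 and 236 CPM with both additions, and fell by 0.44, 0.46 and 0.40 on the log2 scale without additions, in TGF-beta and in both additions (edgeR adjusted p = 0.0275, 0.00843 and 0.0234). Dlst, its partner in the complex, was 226, 230.3 and 218 CPM at 24 h and 152 and 199.5 CPM at 72 h without additions and fell by 0.36, 0.38 and 0.26 in the same 3 conditions (edgeR adjusted p = 0.0164, 0.00406 and 0.0411). In lactic acid alone neither passed (-0.30 ± 0.14 and -0.068 ± 0.10). Without additions Ogdh lost the call without replicate 1 of the 24 h group without additions or replicate 1 of the 72 h group without additions, Dlst without replicate 1 of the 72 h group without additions and Got1 without replicates 1 or 2 of the 24 h group without additions or replicate 1 of the 72 h group without additions (edgeR adjusted p up to 0.386, 0.364 and 0.506). With TGF-beta Ogdh lost it without replicate 1 of the 72 h TGF-beta group, and with both additions Ogdh lost it without replicate 2 of the 24 h group with both additions or replicate 1 of the 72 h group with both additions and Dlst without replicates 1, 2 or 3 of the 24 h group with both additions or replicates 1 or 2 of the 72 h group with both additions (edgeR adjusted p up to 0.0531, 0.139 and 0.153). With TGF-beta the calls were lost for Sdhc without replicates 1, 2 or 3 of the 24 h TGF-beta group or replicates 1 or 2 of the 72 h TGF-beta group, for Idh3g without replicates 1, 2 or 3 of the 24 h TGF-beta group or replicate 1 of the 72 h TGF-beta group and for Sucla2 without replicates 1 or 2 of the 24 h TGF-beta group or replicate 1 of the 72 h TGF-beta group (edgeR adjusted p up to 0.24, 0.208 and 0.119). With both additions they were lost for Sdhc without replicates 1 or 2 of the 24 h group with both additions or replicates 1 or 2 of the 72 h group with both additions, for Idh3g without replicates 1 or 2 of the 24 h group with both additions or replicates 1 or 2 of the 72 h group with both additions and for Mdh1 without replicates 1 or 2 of the 24 h group with both additions or replicates 1 or 2 of the 72 h group with both additions (edgeR adjusted p up to 0.184, 0.0624 and 0.111).

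With TGF-beta, Aco1 went from 76.4, 77.3 and 70.5 CPM at 24 h to 47.5, 52.6 and 52.2 CPM at 72 h, and Fh1 from 123, 119.5 and 114 to 51.8, 85.4 and 86.6 CPM, without overlap between the times in either gene. With TGF-beta the change was -0.56 ± 0.092 for Aco1 and -0.67 ± 0.19 for Fh1 on the log2 scale (edgeR adjusted p = 2.42e-05 and 0.00475), and in TGF-beta with lactic acid -0.61 ± 0.092 and -0.52 ± 0.19 (edgeR adjusted p = 7.77e-06 and 0.0257). Sdhd was 160.4, 142 and 135 CPM at 24 h and 83.3, 117 and 114 CPM at 72 h with TGF-beta, a fall of 0.48 ± 0.19 (edgeR adjusted p = 0.037) that was lost without replicates 1 or 2 of the 24 h TGF-beta group or replicate 1 of the 72 h TGF-beta group (edgeR adjusted p up to 0.181). The Fh1 call with both additions was lost without replicates 1 or 2 of the 24 h group with both additions or replicate 1 of the 72 h group with both additions (edgeR adjusted p up to 0.106). Aco1 and Fh1 did not pass over time without TGF-beta (0.13 ± 0.10 and -0.28 ± 0.21 without additions).

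The effect of lactic acid was asked within each time, population and TGF-beta condition. None of the 32 genes passed edgeR's test in any of the 5 comparisons. At 24 h without TGF-beta 0.0835% of all genes passed, at 24 h with TGF-beta 0.23%, at 72 h in Tcon without TGF-beta 0.0696%, in Tcon with TGF-beta 2.16% and in Treg 3.51%. At an unadjusted p below 0.05 the counts were 1, 1, 2, 1 and 3 of 32, against 7.14%, 8.33%, 8.97%, 14.2% and 17.1% of all genes. DESeq2 called 0 of the 32 in 4 comparisons and 1, Got1, at 72 h in Tcon without TGF-beta, where it called 0.403% of all genes. With the replicate block edgeR called 1, 1, 2, 1 and 7 of 32, all higher with lactic acid, against 4.27%, 6.7%, 3.42%, 15.4% and 19.7% of all genes.

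**Figure D5:**
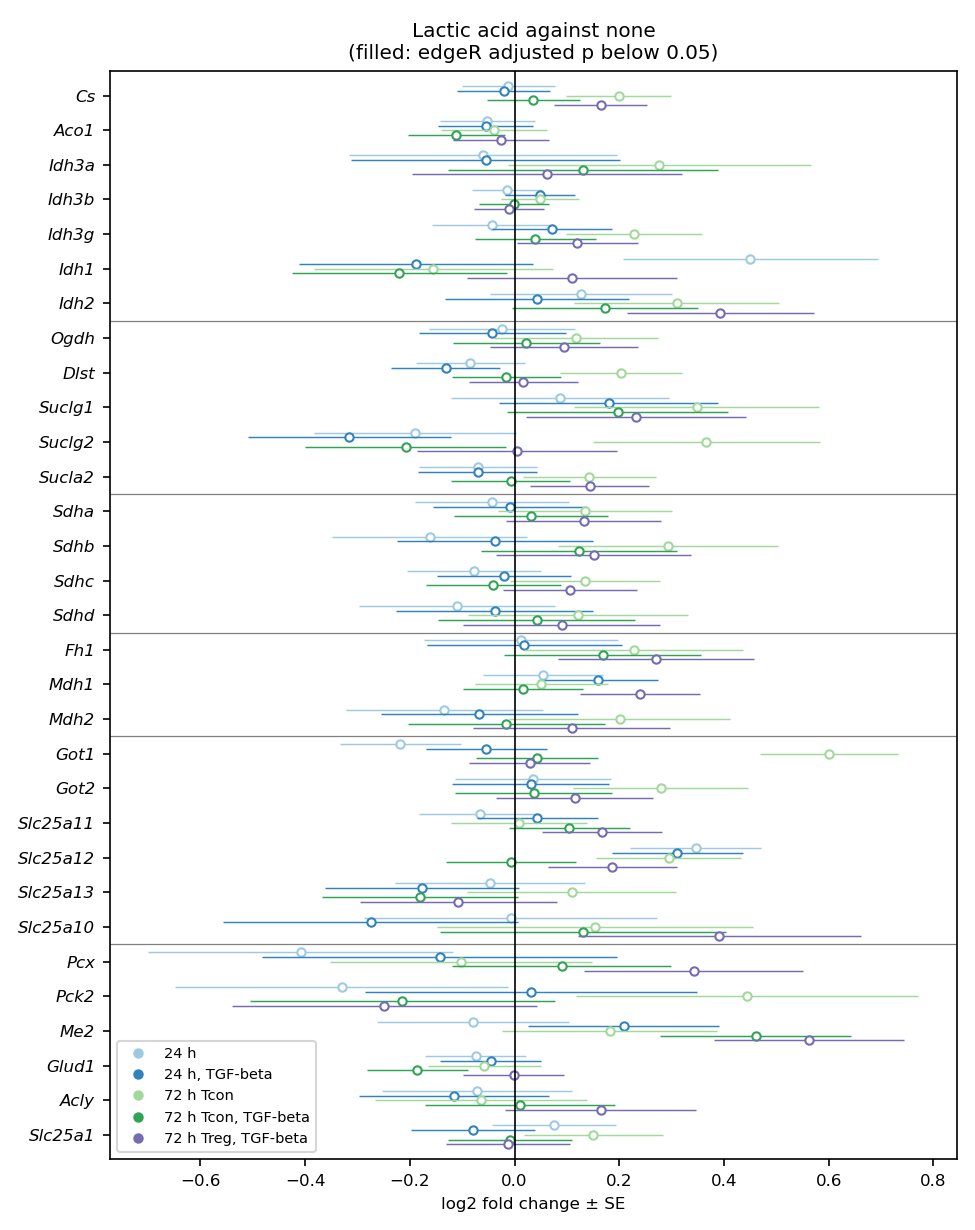
Log2 fold changes with lactic acid are plotted for 31 genes with their SE in the 5 comparisons, and all points are open because none passed edgeR's test at an adjusted p below 0.05. Most values lie within 0.4 of 0, with Got1 in 72 h Tcon without TGF-beta and Me2 in the 72 h TGF-beta cultures farther to the right. Me1 is left out because it had no counts in 1 group.

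Slc25a12 was the gene that the block called at 24 h. It was 72.3, 64.8 and 68.3 CPM without additions and 89.7, 86.7 and 84.6 CPM with lactic acid, and 74.3, 73.4 and 70.4 against 89.2, 93.5 and 87.9 CPM in the presence of TGF-beta. Every library with lactic acid was above every library without it. The log2 fold changes were 0.35 ± 0.12 and 0.31 ± 0.12, with edgeR adjusted p = 0.491 and 0.477 without the block and 0.0125 and 0.018 with it. At 72 h it was 0.29 ± 0.14 in Tcon without TGF-beta and -0.0069 ± 0.12 with it (edgeR adjusted p = 0.553 and 0.992).

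At 72 h without TGF-beta, Got1 was 127 and 171 CPM without and 199.6, 222 and 257 CPM with lactic acid. All lactic acid libraries were higher, and the log2 fold change was 0.60 ± 0.13 with edgeR adjusted p = 0.0686 without and 0.00616 with the block, and DESeq2 adjusted p = 0.00474. Idh2 passed there with the block alone (0.31, edgeR adjusted p = 0.0444). The median log2 fold change of the 32 genes there was 0.15, against -0.0068 for all genes, and rested on single libraries, with 0.034 without replicate 1 and 0.34 without replicate 2 of the group without additions. The Got1 effect differed between Tcon without and with TGF-beta by 0.56 ± 0.17 on the log2 scale, lower with TGF-beta, which did not pass without the block (edgeR adjusted p = 0.327) and passed with it (edgeR adjusted p = 0.0398). Of the 32 genes 0 passed that interaction (all genes 0.104%), 1 at an unadjusted p below 0.05 (all genes 7.8%), and 0 with DESeq2. With the block 2, Got1 and Pck2, passed (all genes 4.54%).

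In the TGF-beta cultures at 72 h Me2 was the gene with the largest rise among those called with the block. In Tcon it was 187, 327 and 320.3 CPM without and 382, 356 and 410.2 CPM with lactic acid, and in Treg 193, 337 and 350.2 against 396, 433 and 470 CPM. Each lactic acid library exceeded the library of the same number, with the widest step in replicate 1. The log2 fold changes were 0.46 ± 0.18 in Tcon and 0.56 ± 0.18 in Treg, with edgeR adjusted p = 0.219 and 0.0923 without and 0.00414 and 0.000727 with the block. In Treg the block also called Idh2, which was 22.4, 37.8 and 35.2 against 37.2, 47.5 and 40.5 CPM (0.41, edgeR adjusted p = 0.000655), Slc25a10 (0.42), Fh1 (0.29), Suclg1 (0.27), Mdh1 (0.25) and Cs (0.17; edgeR adjusted p = 0.0182, 0.0115, 0.0359, 0.0342 and 0.046). The block called 19.7% of all genes in that Treg comparison. Suclg1 was 48.04, 89.8 and 102 CPM without and 78.9, 100 and 103 CPM with lactic acid. Its log2 fold change was -0.031 without replicate 1 of the Treg group without lactic acid. Replicate 1 was also the lowest Treg library for Fh1, at 56.7 CPM without and 80.6 CPM with lactic acid. Transcripts encoded by mitochondrial DNA summed to 8331 to 9217 CPM in Tcon with TGF-beta and 10412 to 16955 CPM with lactic acid added, and to 6453 to 13342 and 8385 to 10042 CPM in the Treg. The CD8 T and natural killer cell markers summed to 40.7 to 89.4 and 91.6 to 137 CPM in these Tcon and to 36.4 to 77.4 and 63.98 to 106 CPM in these Treg without and with lactic acid. The part of either in these values was not tested.

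The lactic acid effect was compared between Treg and Tcon of the TGF-beta cultures as an interaction. Of the 32 genes 0 passed edgeR's test, as did 0% of all genes, 0 had an unadjusted p below 0.05 (all genes 2.65%), and DESeq2 called 0. For Me2 the difference was 0.10 ± 0.26 and for Idh2 0.22 ± 0.25 on the log2 scale. A lack of calls does not show that both populations respond alike.

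Treg were compared with the Tcon of the same cultures at 72 h, and none of the 32 genes passed. Without lactic acid 0.216% and with it 2.55% of all genes passed. At an unadjusted p below 0.05 the counts were 1 and 2 of 32 (all genes 5.63% and 13.2%), and DESeq2 called 0 and 0. The median log2 fold change of the 32 was 0.016 without and 0.11 with lactic acid, and that of all genes was 0.0027 and 0.0068. In fits that left out 1 library the median of the 32 ran from -0.11 (without replicate 1 of the Tcon) to 0.16 (without replicate 1 of the Treg) without lactic acid, and with it from 0.055 (without replicate 1 of the Tcon) to 0.18 (without replicate 3 of the Tcon).

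Pcx was 76.7, 149 and 137 CPM in Treg with TGF-beta and 161, 145 and 155 CPM in Treg with lactic acid added, overlapping the Tcon of the same cultures (log2 difference 0.10 ± 0.21 and 0.35 ± 0.21, edgeR adjusted p = 1 and 0.521). Slc25a13 was 12.3, 17.4 and 16.8 CPM in Treg with TGF-beta and 11.9, 14.9 and 16.3 CPM with both additions, likewise at the low level of the TGF-beta Tcon. Pck2 was 193, 142 and 146 CPM and 232, 83.4 and 89.5 CPM in these groups, with replicate 1 above the others. With lactic acid the block called Glud1, at 244, 211 and 217 CPM in Tcon and 301, 260.5 and 245 CPM in Treg, and Slc25a10, at 15.1, 21.2 and 26.7 CPM in Tcon and 22.96, 30.99 and 27.8 CPM in Treg. It called 12.7% of all genes. Their log2 differences with the block were 0.26 and 0.39 (edgeR adjusted p = 0.00844 and 0.0435; without the block 0.191 and 0.63). In both genes each Treg library was above the Tcon library of the same number.

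A feature of the libraries touches many of these genes. At 72 h replicate 1, the male replicate, was the lowest library of its group in all 6 groups for 16 of the 32 genes, against 17.6% of all genes tested. They were Acly, Cs, Dlst, Fh1, Got2, Idh2, Idh3a, Mdh2, Ogdh, Sdha, Sdhb, Sdhc, Sdhd, Slc25a10, Sucla2 and Suclg1. It was the highest in all 6 groups for 1, Pck2, against 15.5% of all genes. At 24 h replicate 1, also male, was the lowest in all 4 groups for none of the 32 and the highest for 5, Fh1, Got1, Idh3a, Sdhc and Slc25a1, against 7.03% and 5.45% of all genes. Sex and any other property of replicate 1 cannot be told apart. Without the 6 replicate 1 libraries of 72 h, a choice made after the data had been seen, 17 of the 32 genes passed for TGF-beta at 72 h without lactic acid and 22 with it, against 33.3% and 51.6% of all genes. Pcx and Me2 then rose by 2.29 and 1.31 on the log2 scale in lactic acid (edgeR adjusted p = 6.44e-11 and 3.26e-11).

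Neighbouring pathways were followed through 4 lists: the entry of pyruvate into mitochondria and its regulation, the handling of glutamine and proline, further genes of the cycle and its shuttles, and the use of cytosolic acetyl-CoA for lipids. With TGF-beta at 72 h in lactic acid the genes that passed were 2 higher and 8 lower of 17 for pyruvate entry, 1 higher and 11 lower of 16 for glutamine and proline handling, 2 higher and 4 lower of 15 for the other citrate cycle and shuttle genes and 3 higher and 3 lower of 16 for use of cytosolic acetyl-CoA, where 22.5% of all genes rose and 22.5% fell. Prodh, proline dehydrogenase, fell by 2.49 and Asns, asparagine synthetase, by 1.29 on the log2 scale (edgeR adjusted p = 1.25e-07 and 0.000477). Gpd2, the mitochondrial enzyme of the glycerol phosphate shuttle, fell by 1.42 (edgeR adjusted p = 1.50e-06). Dlat and Dld, components of the pyruvate dehydrogenase complex, fell by 0.88 and 0.89 (edgeR adjusted p = 9.58e-06 and 1.78e-07). Scd1, stearoyl-CoA desaturase, rose by 2.18 ± 0.28 and Acacb, an acetyl-CoA carboxylase, by 2.05 ± 0.51 (edgeR adjusted p = 1.25e-06 and 0.00251).

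Without lactic acid at 72 h the counts were 2 higher and 5 lower of 17 for pyruvate entry, 1 higher and 6 lower of 16 for glutamine and proline handling, 0 higher and 2 lower of 15 for the other citrate cycle and shuttle genes and 1 higher and 2 lower of 16 for use of cytosolic acetyl-CoA, against 12.8% of all genes that rose and 11.7% that fell. Pdk2, a pyruvate dehydrogenase kinase, fell by 1.79 at 72 h and rose by 1.12 at 24 h without lactic acid (edgeR adjusted p = 0.00298 and 0.0454). The difference between the times passed as well (-2.91 ± 0.56, edgeR adjusted p = 0.00233). The 72 h fall of Pdk2 and this difference both rest on the 72 h group without additions, which had 2 libraries. At 24 h 2 pyruvate genes rose and 1 fell with TGF-beta, and 3 genes of acetyl-CoA use rose (all genes 7.96% and 3.35%), led by Scd1 at 2.73 ± 0.47 (edgeR adjusted p = 0.000238).

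Over time without additions the counts were 6 higher and 2 lower of 17 for pyruvate entry, 10 higher and 2 lower of 16 for glutamine and proline handling, 2 higher and 6 lower of 15 for the other citrate cycle and shuttle genes and 7 higher and 1 lower of 16 for use of cytosolic acetyl-CoA, beside 27.1% of all genes higher and 18.4% lower. Among the large rises were those of Scd1 (6.73 ± 0.42), the lactate transporter Slc16a3 (5.25 ± 0.27), Asns (4.20 ± 0.32) and the mitochondrial alanine aminotransferase Gpt2 (3.01 ± 0.31), with edgeR adjusted p = 2.32e-11, 1.08e-12, 5.32e-10 and 6.54e-08. Among the genes of these lists that lactic acid lowered were Scd2 at 24 h with TGF-beta (-0.93 ± 0.18, edgeR adjusted p = 0.0294), Pdk2 in 72 h Tcon without TGF-beta (-2.60 ± 0.45, edgeR adjusted p = 0.0314), and Mpc1, a subunit of the mitochondrial pyruvate carrier, in 72 h Tcon with TGF-beta (-0.46 ± 0.11, edgeR adjusted p = 0.0242). The Pdk2 value rests on the 72 h group without additions, which had 2 libraries. A fit of the compared groups alone called 0 of 13008 genes in that comparison. In the comparison of Treg with Tcon in lactic acid, Glul, glutamine synthetase, was higher in Treg (0.59 ± 0.11, edgeR adjusted p = 0.00222).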

How the data were processed

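Libraries were prepared with a strand-specific kit and sequenced as single reads of 65 bases, per the labels' protocols. STAR 2.7.3a, HTSeq 0.12.4, DESeq2 1.30.1 and the build GRCm39 are named, per the submitters' processing notes. The deposited values are whole-number counts per Ensembl identifier, without normalization by the authors as far as the values show. No source used here gives the strand setting or the annotation, so reads of overlapping or antisense genes may be misassigned. Summary entries without a gene did not enter library sizes: reads in no gene made up 5.72% to 11.2%, ambiguous reads 1.01% to 1.13% and reads of low alignment quality 13.3% to 16.98% of the entries. Symbols came from GENCODE and RefSeq tables of another build (52081 of 55414 identifiers).

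Groups followed the labels. All 29 libraries entered 1 fit of edgeR 4.0.16 (R 4.3.3) with TMM scaling, no covariates and filterByExpr (minimum count 10, minimum total 15), which kept 14375 genes, and all 19 comparisons were tested by quasi-likelihood with Benjamini-Hochberg adjustment over those genes. A gene was called at an adjusted p below 0.05. The SE is the absolute log2 fold change divided by the square root of its F statistic. Comparisons that share a group are not independent. The script was tested on simulated data. Members and lists were chosen with earlier results of these data known, and p-values were not adjusted over a list alone. Values per library were given for up to 4 called members in each direction per comparison and for pairs of isoenzymes, carriers or subunits, and up to 3 called genes per list and comparison could be named, some of which are not reported here. Values of other members were chosen after they had been seen.

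Libraries with the same replicate number deviated together from their group means within a time point (correlations of 0.12 to 0.77 across genes, and up to 0.51 between different numbers), and so numbers were read as pairing libraries of the same time, though the group with 2 libraries shares 2 numbers alone. Between times the correlations were -0.062 to 0.15. In some comparisons at 72 h the lowest same-number correlation was below the highest between different numbers, while in others and at 24 h it was above. Whether replicates 2 and 3 pair, apart from the shared deviation of replicate 1, was not tested. The block is the replicate number within a time point. Alternatives were RLE scaling, DESeq2 1.42.0, fits without the filter or of the compared groups alone, a block by number over both times, and fits without each library in turn. Leaving out the replicate 1 libraries of 72 h was chosen after seeing the data. Counting intervals and floors (3 counts) cover counting error only.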

Additional observations from a re-analysis of the deposited data

Results flagged for a closer look

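The effect of TGF-beta on Tcon differed between 24 and 72 h for 9 results, by edgeR's interaction test at an adjusted p below 0.05, given as the log2 effect at 72 h minus that at 24 h ± SE. For Pcx the difference was 3.23 ± 0.40 without lactic acid (edgeR adjusted p = 2.04e-05) and 3.15 ± 0.39 with it (edgeR adjusted p = 8.05e-06): the log2 fold change with TGF-beta was -0.92 and -0.66 at 24 h and 2.31 and 2.50 at 72 h. For Aco1 it was -0.69 ± 0.14 (edgeR adjusted p = 0.00312) and -0.75 ± 0.13 (edgeR adjusted p = 0.000327), where the effect at 24 h was 0.0016 and -0.0018.

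In the presence of lactic acid it passed as well for Slc25a13 at -1.06 ± 0.26, Idh2 at -0.76 ± 0.25, Slc25a12 at -0.53 ± 0.17, Mdh1 at -0.51 ± 0.16 and Got1 at -0.50 ± 0.16 (edgeR adjusted p = 0.00743, 0.0416, 0.0455, 0.0369 and 0.0436). Pcx, Aco1 and Slc25a13 passed in every fit that left out 1 library, and the other 4 did not. No group had enough libraries to test for a single outlying library.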

How the results depend on the processing

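Of 94 calls of the 32 genes over the 19 comparisons, 53 passed in every fit that left out 1 library and 41 were lost in at least 1. DESeq2 lost 8, RLE scaling 11, no filter 20, the compared groups alone 18 of 91, both blocks 0, and leaving out the replicate 1 libraries of 72 h 4 of 90. None of these reversed a called direction. Of the calls of Foxp3 and the 4 lists of neighbouring pathways, the compared groups alone kept 198 and lost 48. No filter kept 208 and lost 40, and leaving out the replicate 1 libraries of 72 h kept 212 and lost 21. Values of the 32 genes were followed singly where they passed with or without the block within each time point. Of those, 4 uncalled ones reversed without 1 library, and their range over such fits was -0.031 to 0.45 for Suclg1 with lactic acid in Treg, -0.39 to 0.11 for Slc25a12 with TGF-beta at 72 h without lactic acid, -0.085 to 0.31 for Got2 over time without additions, and -0.47 to 0.28 for Idh3a in TGF-beta by time without lactic acid. The reversal came without replicate 1 of the Treg with TGF-beta for Suclg1 and without replicate 2 of the 72 h group without additions for the others, and for Idh3a also without replicate 1 of the 72 h TGF-beta group (0.060). Other uncalled values moved as well: the median of the 32 went from 0.11 to -0.045 for lactic acid in Treg without replicate 1 of the Treg with TGF-beta. The cause was not tested.

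The number of the 32 genes called moved by over 1.5 times as follows. With the replicate block within each time point, which pairs libraries, it was 1, 1, 2, 1 and 7 for lactic acid (24 h without and with TGF-beta, 72 h Tcon without and with, Treg), 12, 10 and 20 for TGF-beta (24 h without and with lactic acid, 72 h without), 2 for Treg with lactic acid, 19, 24 and 25 over time (no additions, TGF-beta, both; all genes 58.02%, 65.9% and 61.7%), and 2, 10 and 18 for lactic acid by TGF-beta and TGF-beta by time without and with lactic acid. With the block over all libraries it was 1 for lactic acid in Treg (all genes 8.26%), 5 and 4 for TGF-beta at 24 h (15.4% and 17%) and 4 for TGF-beta by time without lactic acid (8.9%). With the compared groups alone it was 1 for lactic acid at 24 h without TGF-beta (all genes 1.21%). For TGF-beta it was 11, 8 and 3 (31.8%, 27.1% and 7.92%), and over time without additions 5 (40.5%). DESeq2 gave 1 for lactic acid at 72 h (0.403%), and 7 and 5 for TGF-beta at 24 h (13.9% and 14.9%). RLE scaling gave 5 and 4 for TGF-beta at 24 h (11.5% and 12.7%) and 3 for TGF-beta by time with lactic acid (14.3%). No filter gave 1 and 1 for lactic acid at 72 h in Tcon and Treg (0.227% and 2.34%) and 3 for TGF-beta at 24 h with lactic acid (6.15%). Without the replicate 1 libraries of 72 h it was 1 and 2 for lactic acid with TGF-beta in Tcon and Treg, against 5.59% and 7.75% of all genes. It was 2 for Treg with lactic acid (all genes 5.99%), and 21 and 23 over time with lactic acid and with TGF-beta (53.8% and 56.8%). For TGF-beta by time with lactic acid it was 18 (26.9%). Comparisons with the 72 h group without additions, left with 1 library, are not counted here.

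Leaving out 1 library at a time gave 0, 0, 0 to 2, 0 and 0 to 1 calls for lactic acid, 1 to 3, 1 to 5, 5 to 8 and 15 to 22 for TGF-beta, 0 and 0 for Treg against Tcon, 8 to 12, 9 to 13, 9 to 17 and 8 to 14 over time, and 0, 0, 2 to 3 and 3 to 6 for the interactions, in the order used above. Counts moved by over 1.5 times without these libraries: for lactic acid at 72 h without TGF-beta, replicate 2 of the group without additions (2) and replicate 1 of the lactic acid group (1), for lactic acid in Treg, replicate 1 of the group with both additions (1), for TGF-beta at 24 h, replicate 1 of the group without additions or 3 of the TGF-beta group (1 each) and, in lactic acid, replicate 3 of the lactic acid group (5), over time, 24 h replicate 2 of the TGF-beta group (9), and 24 h replicates 1 and 2 and 72 h replicate 1 of the group with both additions (9, 8 and 8), and for TGF-beta by time with lactic acid, 24 h replicates 2 and 3 of the lactic acid group (4 and 3), 24 h replicates 1 and 2 of the group with both (3 and 3), 72 h replicate 3 of the lactic acid group (3) and 72 h replicate 2 of the group with both (4). The counts without 1 library were not set against the share of all genes in the same fits. Where 1 library was left of a group, it was assumed to vary like the others. Time comparisons share replicate numbers that did not pair libraries. Depth limits Me1, and less so Idh1.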
